A study of Rattus norvegicus with 31 samples.

Results

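The genes of membrane traffic described here are the Rab, Arf and Arl families, the Vps, Sec and Snx genes, the subunits of the COPI coat and of the AP adaptors, and the TRAPP and exocyst tethers. They were chosen by gene symbol alone: a probe set entered when the platform annotation gave it 1 symbol of these families. The 7 probe sets of genes whose symbols start with Rab3, with no further digit after it, were left out. The rule took 197 of the 12913 probe sets tested, and these name 150 of 9769 genes. Of the 150 genes, 115 had 1 probe set and 35 had several. Because the rule goes by name, it also took genes with other work, such as Sec61b and Sec62 of protein entry into the ER, the splicing-related Arl6ip4 and the chromatin factor Vps72.

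The arrays carried amplified RNA of motor neurons of the tail from adult male Wistar rats, labelled by Fluoro-Gold and taken by laser from the sacral cord. The injured rats had the cord fully transected at S2 and were examined 2 days (Spi-2, n = 6), 7 days (Spi-7, n = 5), 21 days (Spi-21, n = 8) and 60 days (Spi-60, n = 8) later. The 4 rats of the uninjured group (Control) were not operated on. All 31 animals received the tracer 5 to 7 days before their cells were taken, no transgene was used, and each array stands for 1 animal.

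Membrane traffic moves proteins and lipids between compartments in vesicles. COPII coats carry cargo out of the ER and COPI coats return it from the Golgi, while clathrin adaptors (AP complexes) sort it at the Golgi, at endosomes and at the plasma membrane. Small GTPases of the Arf family start the budding of a coat, Rab GTPases mark each compartment and call in tethers, and sorting nexins, retromer and ESCRT decide which cargo is recycled and which is degraded. A motor neuron depends on these routes because its receptors, channels and synaptic proteins are made in the cell body and have to be delivered along dendrites and a long axon.

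Values are RMA expression on the log2 scale, so that a difference of 1 is a doubling, and a probe set was called at a Benjamini-Hochberg adjusted p under 0.05 in limma over all 12913 probe sets. The member probe sets averaged between 3.92 and 12.51, and their median of 6.62 lay above the 6.00 of all probe sets. Array medians lay between 5.95 and 6.1. The motor neuron markers had 8 of 11 genes in the table under 1 symbol, with a summed linear level of 40995 to 58705 over the injured groups and 43809 to 58037 in Control. The neurofilament genes, with group means of 13.17 and above, made up most of this sum. At days 2, 21 and 60, 1 of the 8 was higher and 1 lower, and at day 7 1 was higher. The mean of Slc5a7 was 10.36 to 10.50 in the injured groups, against 11.54 in Control, and that of Prph 12.69 to 12.90, against 12.10. Of these 8, Isl1 and Isl2 stood low, with group means between 5.54 and 5.77, and Chat, Mnx1 and Ache had no probe set under 1 symbol. The RNA differed in its loss towards the 5′ end. The signal of the Gapdh control sets at the 3′ end minus that at the 5′ end averaged 2.01 ± 0.33 (log2, SD) in Control, 2.82 ± 0.36 in Spi-2, 3.01 ± 0.37 in Spi-7, 2.29 ± 0.94 in Spi-21 and 3.49 ± 0.35 in Spi-60. In Spi-21 it was 2.9 to 3.54 in replicates 1 to 3 and 1.13 to 2.76 in replicates 4 to 8. Per the methods, the late arrays (days 21 and 60) date from an earlier study than those of Control and of days 2 and 7, so that late injury and study cannot be told apart in a comparison of Spi-21 or Spi-60 with Control.

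Membrane traffic genes were called in both directions after the injury. The groups differ in size, and no test compared how often genes were called late and early. At day 2, 13 of the 197 probe sets were called, which is 6.6% against 8.87% of all probe sets. Of these 13, 7 were higher (3.9% of all probe sets were) and 6 lower (4.98% of all). At day 7, 5 were called (2.54% against 2.59%), of which 2 were higher and 3 lower (0.914% and 1.67% of all). At day 21, 40 were called (20.3% against 16.6%), with 10 higher (5.94% of all) and 30 lower (10.7% of all). At day 60, 34 were called (17.3% against 17.1%), with 15 higher (7.2% of all) and 19 lower (9.89% of all). The members called lower at day 21 made up 15.2%. The median change of the members was -0.01, -0.02, -0.01 and 0.00 (log2) at days 2, 7, 21 and 60, and that of all probe sets lay between 0.00 and 0.01 in size. The moderated F-test over the 5 groups, at an FDR of 0.02, called 45 members (22.8%), against 16.2% of all. The animals of a group and of Control did not overlap for 15 members at day 2 (9.39% of all probe sets), 13 at day 7 (9.23%), 14 at day 21 (7.33%) and 27 at day 60 (12.8%). In late minus early, the mean of Spi-21 and Spi-60 minus that of Spi-2 and Spi-7, 57 members were called (23.3% of all), 25 above 0 (11% of all) and 32 below (12.2% of all). All of the comparisons with Control share the same 4 Control animals. In bulk samples such as these, fewer cells of a type and less RNA per cell cannot be told apart.

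**Figure D1:**
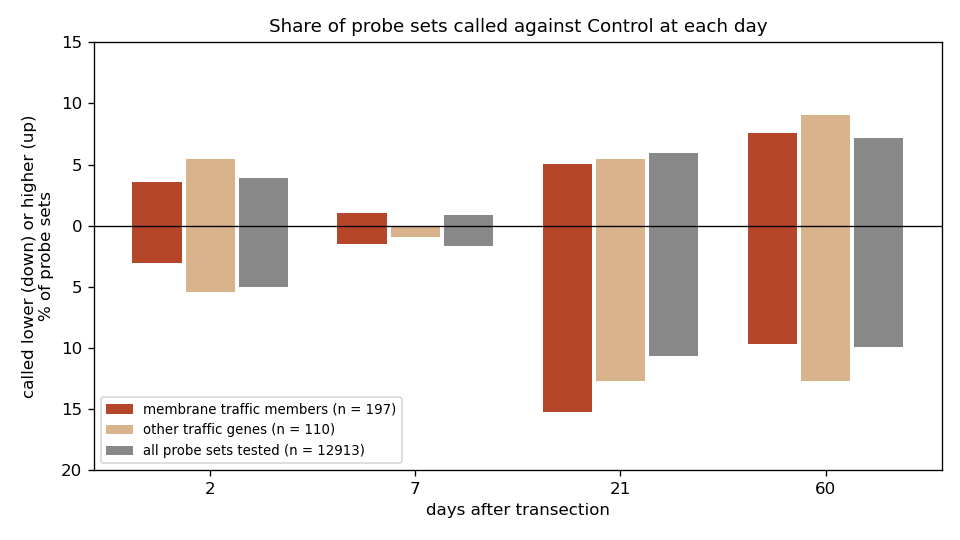
Bars give the percentage of probe sets called higher (upward) or lower (downward) than Control at an adjusted p under 0.05 in limma, by days after transection, for the 197 membrane traffic probe sets, 110 probe sets of other traffic genes and all 12913 probe sets. Between the membrane traffic bars and those of all probe sets, the widest gap is that of the calls lower at day 21, 15.2% against 10.7%.

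The split between directions moved with the scaling of the arrays. After a further quantile normalization the 40 calls of day 21 were 20 higher and 20 lower (8.54% and 7.85% of all probe sets), the 36 of day 60 were 25 higher and 11 lower (8.94% and 7.27% of all), and the 18 of day 2 were 12 higher and 6 lower (3.86% and 4.27% of all). At days 21 and 60 the split over all probe sets moved the same way. The number of calls also moved with the arrays and the covariate. Without Spi-21 replicates 1 to 3, 18 members were called at day 2 and 9 at day 21 (10.8% and 5.27% of all), and with the Gapdh signal as a covariate 11 at day 2 and 4 at day 60 (5.95% and 2.07% of all). Between time points of 1 study no member was called. Spi-7 against Spi-2 gave 0 calls among the members (0% of all probe sets) and 6 members, or 3.05%, at an unadjusted p under 0.05, as did 3.56% of all. Spi-60 against Spi-21 gave 0 calls (0.0697% of all) and 27 members, or 13.7%, at an unadjusted p under 0.05, as did 12.1% of all.

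**Figure D2:**
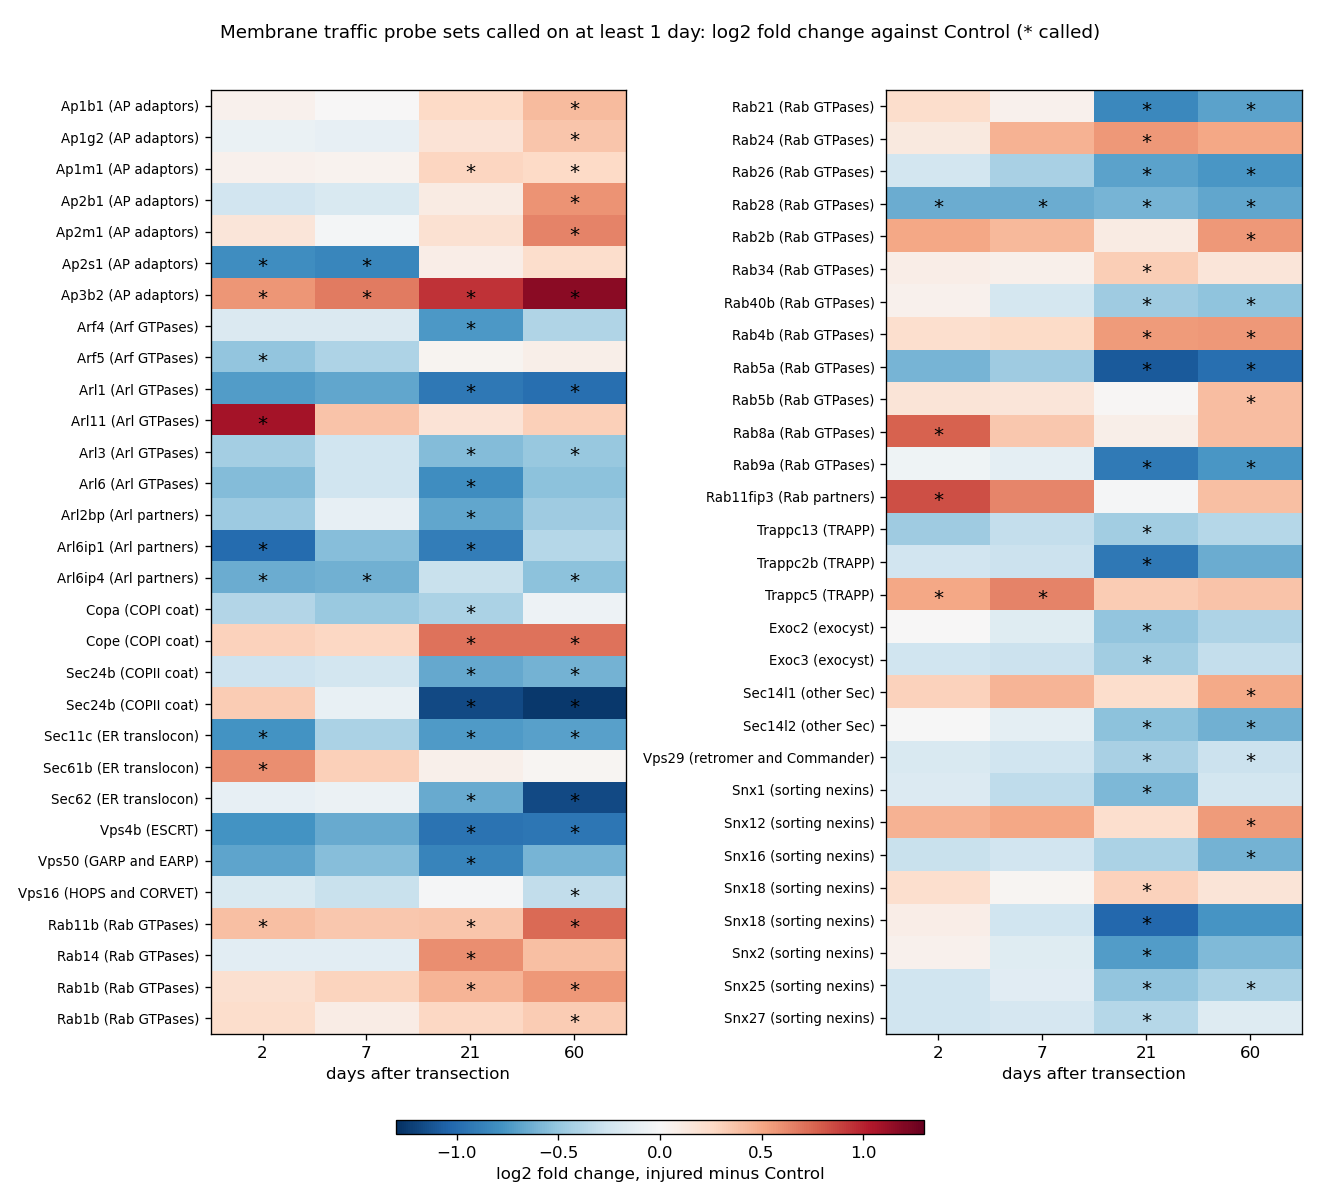
Colours give the log2 fold change against Control at days 2, 7, 21 and 60 (injured minus Control, red higher, blue lower) for the 59 membrane traffic probe sets called on at least 1 day, grouped by role, with an asterisk where the adjusted p was under 0.05. AP adaptors are red late, most Arl genes and sorting nexins are blue late, and Rab GTPases hold both colours; Rab28 is blue and Ap3b2 red on each day.

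Rab28 and Ap3b2 were called on each of the 4 days, in opposite directions. Rab28 is a Rab GTPase known from the cilia of photoreceptors, and mutations of it cause cone-rod dystrophy in human. It measured 9.89, 9.84, 9.96 and 9.31 (log2) in the 4 Control animals. It lay between 8.96 and 9.27 in Spi-2 (median 9.11), was 9.14, 9.22, 9.08, 9.29 and 8.84 in Spi-7, and lay between 9.03 and 9.32 in Spi-21 (median 9.14) and between 8.82 and 9.37 in Spi-60 (median 9.02). The injured animals formed 1 narrow band below 3 of the Control animals, and only the lowest Control animal touched the upper end of the late groups. The change was -0.65 ± 0.12 at day 2 (SE, adjusted p = 0.000756), -0.64 ± 0.12 at day 7 (adjusted p = 0.00397), -0.60 ± 0.11 at day 21 (adjusted p = 0.000881) and -0.68 ± 0.11 at day 60 (adjusted p = 0.000202), each in limma. Late minus early was 0.00 ± 0.07 (adjusted p = 0.994). Rab28 was the 1 member whose call held on all 4 days under each of the 39 alternative settings and left-out arrays, with a highest adjusted p of 0.0365.

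Ap3b2 encodes the neuronal beta subunit of AP-3, the adaptor that sorts proteins to lysosome-related organelles and synaptic vesicles. The brighter of its 2 probe sets read 8.51, 8.42, 8.13 and 8.48 in Control. It lay between 8.56 and 9.18 in Spi-2 (median 9.06), was 8.92, 9.02, 9.36, 8.89 and 9.14 in Spi-7, and lay between 9.04 and 9.85 in Spi-21 (median 9.14) and between 9.26 and 9.79 in Spi-60 (median 9.56). Each injured animal lay above each Control animal. The change was 0.57 ± 0.16 at day 2 (adjusted p = 0.0225), 0.68 ± 0.17 at day 7 (adjusted p = 0.022), 0.94 ± 0.15 at day 21 (adjusted p = 0.00027) and 1.17 ± 0.15 at day 60 (adjusted p = 1.41e-05), a level 2.25 times that of Control. The dim second probe set of the gene averaged 5.01 over all arrays and had changes of -0.44, -0.16, -0.01 and -0.24, none of them called. The early calls were lost with the Gapdh signal as a covariate, without Control replicate 3, and without Spi-2 replicate 3 (day 2) or Control replicate 2 or Spi-7 replicate 3 (day 7); the late calls were kept under each setting.

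The RefSeq promoters of these genes are shown because they were the members called on each day. Each covers 300 bases around the start of the gene in the build GRCr8. Capitals mark the GC box, the letters GGGCGG or, on the other strand, CCGCCC. Rab28 lies at chr14:73458178-73458477 on the plus strand and holds 6 copies, and Ap3b2 at chr1:144854383-144854682 on the minus strand and holds 2.
Rab28: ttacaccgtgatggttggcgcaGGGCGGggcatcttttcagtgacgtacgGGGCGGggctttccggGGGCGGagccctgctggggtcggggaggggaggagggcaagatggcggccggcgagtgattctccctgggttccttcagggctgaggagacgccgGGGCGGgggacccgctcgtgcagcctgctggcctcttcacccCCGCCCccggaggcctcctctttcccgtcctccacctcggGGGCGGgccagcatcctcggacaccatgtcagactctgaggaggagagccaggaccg
Ap3b2: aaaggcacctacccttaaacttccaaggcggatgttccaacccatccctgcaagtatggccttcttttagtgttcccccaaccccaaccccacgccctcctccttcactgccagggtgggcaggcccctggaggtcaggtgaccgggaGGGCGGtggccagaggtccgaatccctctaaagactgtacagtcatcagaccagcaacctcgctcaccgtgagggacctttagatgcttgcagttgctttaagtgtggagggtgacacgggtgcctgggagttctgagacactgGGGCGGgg
Of the 126 member genes with a promoter in the table, 86 (68.3%) held the letters at least once, and of all 27457 promoters 9580 (34.9%) did. The set of all promoters was not limited to genes measured on the array, so that these shares are of unlike sets. The match is a description of the sequence.

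**Figure D3:**
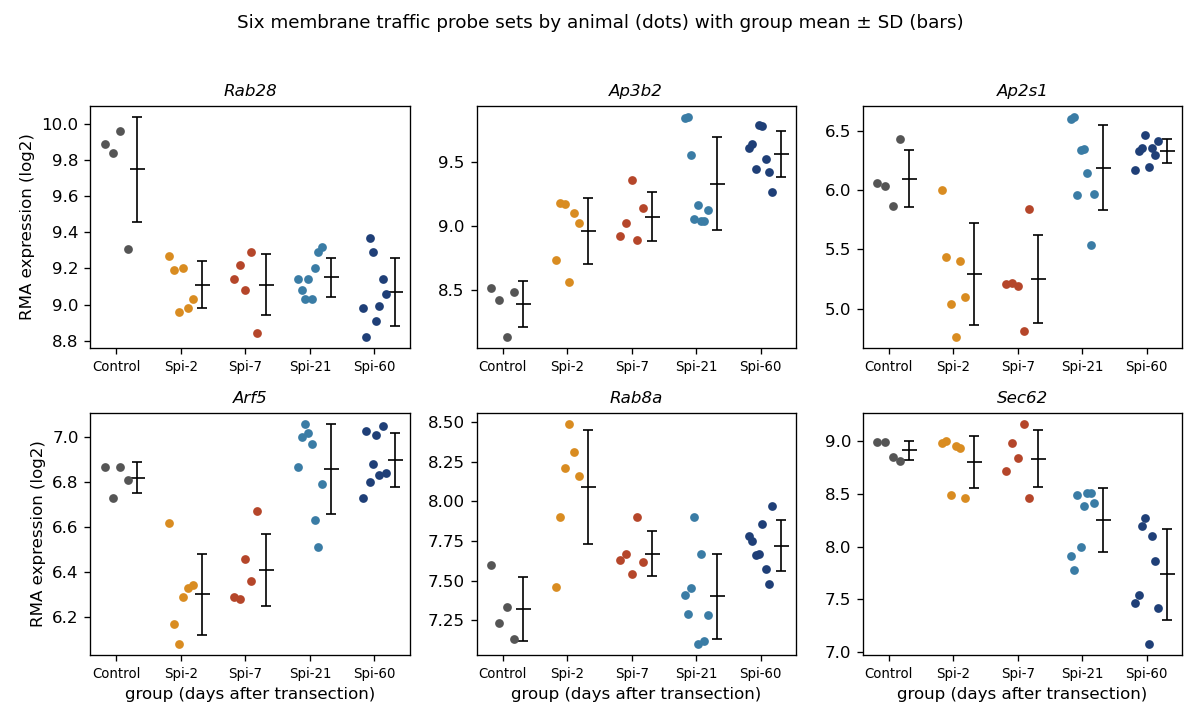
Each dot is 1 animal's RMA expression (log2) in Control, Spi-2, Spi-7, Spi-21 and Spi-60, and the bar beside the dots is the group mean with its SD, for Rab28, Ap3b2, Ap2s1, Arf5, Rab8a and Sec62. Rab28 stays near 9.1 after injury and Ap3b2 climbs to 9.56, Ap2s1 and Arf5 are low in Spi-2 and Spi-7 alone, Rab8a is high in Spi-2, and Sec62 is low in the late groups.

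Among the AP adaptors, 19 probe sets of 15 genes, 1 was higher and 1 lower at days 2 and 7, 2 were higher and 0 lower at day 21, and 6 were higher and 0 lower at day 60. This is 10.5% at each of the first 3 times and 31.6% at day 60, against 8.87%, 2.59%, 16.6% and 17.1% of all probe sets at days 2, 7, 21 and 60. AP-2, the adaptor of clathrin-mediated endocytosis at the plasma membrane, carried the largest contrast between early and late. Ap2s1, its small sigma subunit, read 6.06, 6.04, 5.87 and 6.43 in Control. It lay between 4.76 and 6.00 in Spi-2 (median 5.25), was 5.21, 5.22, 5.19, 4.81 and 5.84 in Spi-7, and lay between 5.54 and 6.62 in Spi-21 (median 6.25) and between 6.17 and 6.47 in Spi-60 (median 6.34). All Spi-7 animals lay below Control and those of Spi-2 reached into its range. The change was -0.81 ± 0.20 at day 2 (adjusted p = 0.00846) and -0.85 ± 0.20 at day 7 (adjusted p = 0.019), against 0.09 ± 0.19 and 0.23 ± 0.19 late (adjusted p = 0.783 and 0.441). Late minus early was 0.99 ± 0.12 (adjusted p = 4.26e-06). Without Control replicate 4 or Spi-7 replicate 4 the day 7 call was lost.

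Probe sets of the medium and beta subunits of AP-2 were higher at day 60. Ap2m1 lay between 9.48 and 10.09 in Spi-60 (median 9.93), against 9.28, 9.22, 9.20 and 9.24 in Control, with no overlap and a change of 0.64 ± 0.12 (adjusted p = 0.000622). Ap2b1 lay between 9.05 and 9.82 in Spi-60 (median 9.51), against 8.93, 8.90, 8.76 and 9.03 in Control, again with no overlap, and changed by 0.58 ± 0.14 (adjusted p = 0.00583). The second, dimmer probe set of Ap2b1 changed by 0.07 (adjusted p = 0.715). At day 21 the changes were 0.20 and 0.11, neither called. Ap2a2, the alpha subunit, changed by 0.40 at day 60 (adjusted p = 0.323). AP-1, which sorts between the Golgi and endosomes, had its mu subunit Ap1m1 higher by 0.28 ± 0.08 at day 21 and 0.26 ± 0.08 at day 60 (adjusted p = 0.0144 and 0.021). Ap1b1 and Ap1g2 were higher at day 60 alone, by 0.41 ± 0.12 and 0.36 ± 0.13 (adjusted p = 0.0176 and 0.044). The other AP-1 genes were not called on these days. Ap1g1 changed by -0.32 at day 21 and -0.27 at day 60, and Ap1s1 by 0.23 and 0.03. These AP-1 genes other than Ap1m1 were named after their values were seen. Of the 8 AP-3 probe sets only the brighter one of Ap3b2 was called late (12.5%, against 16.6% and 17.1% of all). The median change of AP-3 was -0.06 at day 21 and -0.14 at day 60. With the Gapdh covariate none of these AP-1 and AP-2 calls of day 60 remained (Ap2m1 0.34, Ap2b1 0.23), and without Control replicate 3 the Ap1m1 calls were lost. The Ap1b1 call was lost without Control replicate 1, 2 or 3, and the Ap1g2 call without any 1 of the Control animals or Spi-60 replicate 1, 3, 5 or 6.

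Of the Arf GTPases, 9 probe sets of 6 genes, Arf5 was lower at day 2 and Arf4 at day 21, which is 11.1% on each of these days, against 8.87% and 16.6% of all probe sets. Arf5 acts between the ER and the Golgi and in the recruitment of coats. It read 6.87, 6.73, 6.87 and 6.81 in Control. It lay between 6.08 and 6.62 in Spi-2 (median 6.31), was 6.29, 6.28, 6.46, 6.36 and 6.67 in Spi-7, and lay between 6.51 and 7.06 in Spi-21 (median 6.92) and between 6.73 and 7.05 in Spi-60 (median 6.86). Each animal of Spi-2 and Spi-7 lay below each of Control, and both late groups spread around it. The change was -0.51 ± 0.11 at day 2 (adjusted p = 0.00338), -0.40 ± 0.12 at day 7 (adjusted p = 0.0512), 0.04 ± 0.11 at day 21 and 0.08 ± 0.11 at day 60, with late minus early at 0.52 ± 0.07 (adjusted p = 8.91e-06). The day 2 call was kept under each setting. Arf1, Arf3 and Arf6, which act at the Golgi and the plasma membrane, had no call, with changes between -0.32 and 0.28. Arf4 changed by -0.75 ± 0.25 at day 21 (adjusted p = 0.0408), a call lost without Control replicate 2, 3 or 4 or Spi-21 replicate 1, 3, 6, 7 or 8, with the replicate number as a block and after the further quantile normalization.

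The promoters of Ap2s1 and Arf5 are given because these genes had the same course, low early and near Control late. Capitals again mark GGGCGG or CCGCCC. Ap2s1 lies at chr1:86545351-86545650 (plus strand, 1 copy) and Arf5 at chr4:58003721-58004020 (plus strand, 5 copies).
Ap2s1: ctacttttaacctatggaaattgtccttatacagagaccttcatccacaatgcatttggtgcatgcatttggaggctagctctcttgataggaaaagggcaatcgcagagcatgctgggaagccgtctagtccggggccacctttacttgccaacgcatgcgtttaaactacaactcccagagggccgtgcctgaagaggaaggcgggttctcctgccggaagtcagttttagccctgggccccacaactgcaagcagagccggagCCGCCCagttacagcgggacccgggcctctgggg
Arf5: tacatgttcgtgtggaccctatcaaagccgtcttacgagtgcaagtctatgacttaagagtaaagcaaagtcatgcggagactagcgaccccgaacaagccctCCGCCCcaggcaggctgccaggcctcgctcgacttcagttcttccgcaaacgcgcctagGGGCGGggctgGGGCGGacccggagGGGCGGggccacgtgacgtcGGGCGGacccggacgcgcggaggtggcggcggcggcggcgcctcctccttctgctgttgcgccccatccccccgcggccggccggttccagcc
Neither these promoters nor those of Rab28 and Ap3b2 held CCAAT or ATTGG, which 37.7% of all promoters and 38.1% of the member promoters did.

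The Arl GTPases, 6 probe sets of 6 genes, were lower late where they were called, with 3 at day 21 and 2 at day 60 (50% and 33.3%, against 16.6% and 17.1% of all probe sets). Arl1, which recruits golgin tethers to the trans-Golgi, read between 5.48 and 6.99 in Spi-21 (median 6.24) and between 5.81 and 6.40 in Spi-60 (median 6.05), against 6.42, 7.18, 7.29 and 7.50 in Control. Its change was -0.93 ± 0.26 at day 21 and -0.98 ± 0.26 at day 60 (adjusted p = 0.0145 and 0.00915), and only the Spi-60 animals stood clear of Control. Arl3 and Arl6 serve the traffic of membrane proteins into cilia. Arl6 changed by -0.81 ± 0.23 at day 21 (adjusted p = 0.0179). Arl3, named after its values were seen, changed by -0.56 ± 0.17 at day 21 and -0.49 ± 0.17 at day 60 (adjusted p = 0.0241 and 0.046). Its day 21 call was lost without Control replicate 1 or 4 and its day 60 call in 17 of the 39 alternatives, among them those without Control replicate 1, 3 or 4, without Spi-60 replicate 1, 3, 4, 6 or 7, without Spi-21 replicate 4, without Spi-2 replicate 6 and without Spi-7 replicate 1, 2, 3 or 4, and both were lost after the further quantile normalization. Arl2, a partner of tubulin folding, was called in late minus early, at 0.30 (adjusted p = 0.00306), and on no single day.

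At day 2, Arl11 was higher and 2 of the 8 probe sets of Arl partners were lower (25%, against 8.87% of all probe sets called). Arl11, a GTPase studied in mouse macrophages, lay between 5.61 and 7.72 in Spi-2 (median 6.09), against 5.43, 5.54, 5.34 and 4.82 in Control. All Spi-2 animals were above Control, and the change was 1.08 ± 0.27 (adjusted p = 0.0109). It was 0.37, 0.18 and 0.31 at days 7, 21 and 60, not called. Microglia and macrophage markers moved with this day: 4 of their 10 measured genes were higher and 0 lower, and their summed linear level was 904 to 2476 in Spi-2, against 506 to 586 in Control. Their part in the Arl11 result was not tested. Arl6ip1, which shapes ER tubules, changed by -1.0 ± 0.26 at day 2 and -0.90 ± 0.25 at day 21 (adjusted p = 0.0149 and 0.014), and Arl6ip4 by -0.64 ± 0.15 at day 2, -0.62 ± 0.16 at day 7 and -0.53 ± 0.14 at day 60 (adjusted p = 0.00663, 0.0256 and 0.0104). With the Gapdh covariate the day 2 call of Arl6ip1 and the day 7 and day 60 calls of Arl6ip4 were lost. Without Control replicate 4 the Arl11 and Arl6ip1 calls, the day 21 calls of Arl1 and Arl6 and the day 7 call of Arl6ip4 were lost. The Arl1 call of day 21 was also lost without Control replicate 3, the Arl6 call without Control replicate 2, both of these Arl6ip4 calls (days 7 and 60) without Control replicate 1, and the day 7 call of Arl6ip4 without Spi-7 replicate 1, 3 or 4.

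Rab GTPases were the largest group, with 56 probe sets of 38 genes, and were called in equal numbers both ways late: 2 higher and 1 lower at day 2, 0 and 1 at day 7, 6 and 6 at day 21, and 6 and 6 at day 60. The shares called were 5.36%, 1.79%, 21.4% and 21.4%, against 8.87%, 2.59%, 16.6% and 17.1% of all probe sets. The endosomal Rabs differed in direction. Rab5a, which drives entry into and fusion of early endosomes, lay between 7.08 and 8.44 in Spi-21 (median 8.00) and between 7.06 and 8.50 in Spi-60 (median 8.16), against 8.80, 9.28, 8.97 and 8.75 in Control. No late animal reached Control. The change was -1.09 ± 0.25 at day 21 (adjusted p = 0.00438) and -0.98 ± 0.25 at day 60 (adjusted p = 0.00753), that is 2.12 and 1.97 times lower. At days 2 and 7 it was -0.60 and -0.46 (adjusted p = 0.164 and 0.435). The second Rab5a probe set, at a mean of 4.75, was never called, with changes between -0.06 and 0.02.

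Rab5b, a close relative of Rab5a, went the other way at day 60. It lay between 7.71 and 8.22 in Spi-60 (median 8.03), against 7.32, 7.82, 7.63 and 7.60 in Control, a change of 0.40 ± 0.11 (adjusted p = 0.00985) with overlap of the animals, and changed by 0.02 at day 21. Its other 3 probe sets changed by 0.01, 0.30 and 0.24 at day 60, none called. Rab21, an early endosomal Rab of integrin traffic, lay between 6.00 and 7.28 in Spi-21 (median 6.72) and between 6.17 and 7.55 in Spi-60 (median 7.00), against 7.14, 7.99, 7.64 and 7.42 in Control, and changed by -0.84 ± 0.23 and -0.70 ± 0.23 (adjusted p = 0.0144 and 0.0338). The ranges of both late groups crossed the lowest Control animal. Rab9a, of transport from late endosomes to the Golgi, changed by -0.92 ± 0.27 and -0.76 ± 0.27 (adjusted p = 0.0173 and 0.0457). Rab7a, the Rab of late endosomes and lysosomes, had no call on any day, with changes between -0.21 and 0.40. Rab5b, Rab9a and Rab7a were named after their values were seen.

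Rab11b and Rab4b, of recycling, were higher. Rab11b, of the recycling endosome, read 9.30, 9.02, 8.93 and 8.89 in Control. It lay between 9.27 and 9.56 in Spi-2 (median 9.45), was 9.40, 9.32, 9.43, 9.36 and 9.42 in Spi-7, and lay between 9.06 and 9.77 in Spi-21 (median 9.36) and between 9.58 and 9.91 in Spi-60 (median 9.76). Only Spi-7 and Spi-60 were wholly above Control. The change was 0.39 ± 0.11 at day 2 (adjusted p = 0.0199), 0.35 ± 0.11 at day 7 (adjusted p = 0.093), 0.36 ± 0.10 at day 21 (adjusted p = 0.0155) and 0.74 ± 0.10 at day 60 (adjusted p = 3.13e-05). Spi-60 minus Spi-21 was 0.38 ± 0.08 (adjusted p = 0.0559). The dim second probe set of Rab11b, at 5.20, changed by at most 0.05, and the 2 probe sets of Rab11a were not called. Rab4b, of rapid recycling, lay between 5.81 and 6.42 in Spi-21 (median 6.06) and between 5.90 and 6.35 in Spi-60 (median 6.07), against 5.33, 5.30, 5.64 and 5.86 in Control, with changes of 0.55 ± 0.12 and 0.56 ± 0.12 (adjusted p = 0.00377 and 0.0026). Rab14, between Golgi and endosomes, rose at day 21 by 0.60 ± 0.19 (adjusted p = 0.0286). Rab4b and Rab14 were named after their values were seen.

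**Figure D4:**
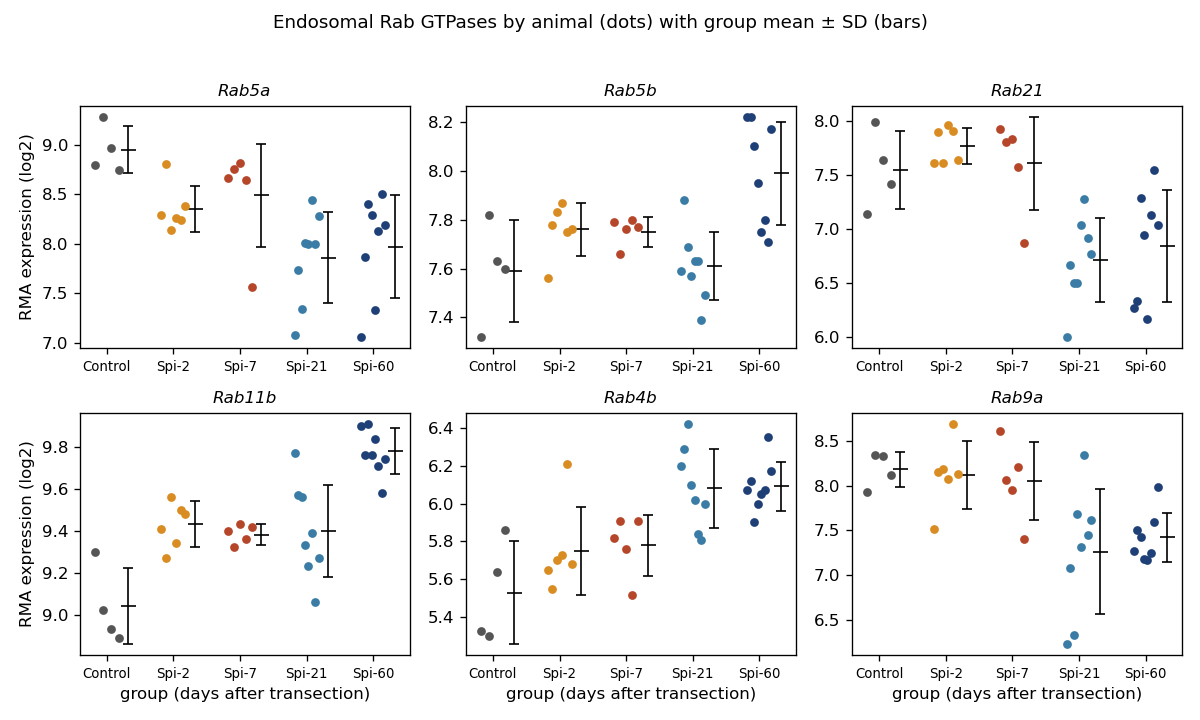
Each dot is 1 animal's RMA expression (log2) in Control, Spi-2, Spi-7, Spi-21 and Spi-60, with the group mean and SD beside it, for the endosomal Rabs Rab5a, Rab5b, Rab21, Rab11b, Rab4b and Rab9a. Rab5a, Rab21 and Rab9a have lower means late than in Control (for Rab5a 7.86 at day 21 and 7.97 at day 60, against 8.95), and Rab11b and Rab4b have higher ones.

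The samples also held RNA of other cells. Of 9 oligodendrocyte markers measured, 5 were lower and 0 higher at day 21, with a summed linear level of 3010 to 5649 in Spi-21, against 5295 to 10355 in Control. Of 5 interneuron markers 3 were lower at each late day, with sums between 243 and 614 at day 21 and between 292 and 750 at day 60, against 480 to 2369 in Control. Oligodendrocyte markers had 2 lower at day 60. Of the 10 microglia and macrophage markers, 2 were higher at day 21 and 3 at day 60, with medians of 0.43 and 0.51 (log2) and sums of 506 to 2251 at day 21 and 632 to 2287 at day 60, against 506 to 586 in Control. At day 2, 2 of the 5 interneuron markers and 1 of the 9 oligodendrocyte markers were lower, with median changes of -0.91 and -0.34. At day 7, 1 oligodendrocyte marker was lower. Of 6 astrocyte markers 1 was higher at day 2, with a median of -0.27. At day 21, 1 astrocyte marker was higher and 1 lower, and at day 60, 1 was higher. The part of these cells in the changes of Rab5a, Rab21, Rab9a and the other members, early or late, was not tested. The Rab5a call of day 21 was lost without Spi-21 replicates 1 to 3, and the day 60 calls of Rab5a, Rab5b, Rab21, Rab9a and Rab4b with the Gapdh covariate. Without Control replicate 2 the Rab21 calls and the day 21 calls of Rab9a and Rab14 were lost, and without Control replicate 1 the Rab5b call. The day 21 call of Rab9a was also lost without Control replicate 3, that of Rab14 without Control replicate 3 or Spi-21 replicate 1 or 3. The day 60 call of Rab9a was lost in 17 of the 39 alternatives, among them those without any 1 of the Control animals, without Spi-60 replicate 1, 2, 3, 4, 5 or 6, without Spi-2 replicate 6, without Spi-7 replicate 2, 3 or 4 and without Spi-21 replicate 5. The Rab21 call of day 60 was also lost without Control replicate 3 or 4 or Spi-60 replicate 1, 2 or 5. The Rab11b call of day 2 was lost with the Gapdh covariate and without Control replicate 2, 3 or 4. That of day 21 was lost without Control replicate 3 or 4.

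Rabs of the secretory route changed too. Rab8a, of transport from the Golgi to the plasma membrane and to cilia, lay between 7.46 and 8.49 in Spi-2 (median 8.18), against 7.60, 7.23, 7.33 and 7.13 in Control. Its change of 0.77 ± 0.16 (adjusted p = 0.00193) was kept under each setting, with 1 Control animal inside the Spi-2 range. Rab11fip3, an effector that Rab11 binds, lay between 6.56 and 7.17 in Spi-2 (median 6.91), against 5.92, 6.24, 5.93 and 6.11 in Control, with no overlap, and changed by 0.84 ± 0.21 (adjusted p = 0.0123), which also held throughout. By days 21 and 60 the changes were 0.08 and 0.40 for Rab8a and -0.02 and 0.39 for Rab11fip3, none called. Rab26, found on secretory granules and synaptic vesicles, lay between 5.28 and 6.20 in Spi-21 (median 5.60) and between 5.40 and 6.05 in Spi-60 (median 5.52), against 6.77, 6.43, 6.49 and 6.09 in Control. It changed by -0.70 ± 0.19 and -0.76 ± 0.19 (adjusted p = 0.0116 and 0.00617), and only the Spi-60 animals did not overlap with Control. Without Control replicate 1 its day 21 call was lost.

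Rab1b and Rab2b act between the ER and the Golgi. Of the 4 probe sets of Rab1b, 2 were higher at day 60, by 0.56 ± 0.14 and 0.33 ± 0.10 (adjusted p = 0.00682 and 0.0237), and the first of them also at day 21, by 0.44 ± 0.14 (adjusted p = 0.0285). That probe set is of a type that can bind related transcripts. Its day 21 call was lost without any 1 of the Control animals or Spi-21 replicate 3, and the day 60 call of the other without Control replicate 1 or 4. The relative Rab1a changed by -0.38 and -0.22 late, not called. The 2 probe sets of Rab2b pointed apart at day 60, at 0.56 (adjusted p = 0.0147) and -0.33 (adjusted p = 0.136), and the call was lost without Control replicate 2 or 3. Rab8a, Rab1b, Rab2b and Rab1a were named after their values were seen. Rab15, a Rab of endosomal recycling, had 1 of 3 probe sets called in late minus early, at -0.98 (adjusted p = 0.0073), with 1.07 at day 2 (adjusted p = 0.111). It too was chosen after its values were seen. Rab34, linked to cilia and lysosome position, changed by 0.32 ± 0.11 at day 21 (adjusted p = 0.0395). This call was lost without any 1 of the 4 Control animals and without Spi-21 replicate 2, 3 or 6. The second probe set of Rab34 changed by -0.06 at day 21 (adjusted p = 0.828).

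The coats of the early secretory pathway, 10 probe sets of 9 genes, had no call early, 1 higher and 3 lower at day 21 (40%, against 16.6% of all probe sets) and 1 higher and 2 lower at day 60 (30%, against 17.1%). Sec24b, a cargo-binding subunit of COPII, was the 1 member gene with several probe sets that were all called on a day. The brighter probe set lay between 5.74 and 6.55 in Spi-21 (median 6.29) and between 6.08 and 6.47 in Spi-60 (median 6.28), against 6.66, 6.85, 6.98 and 7.08 in Control. No late animal reached Control, and the changes were -0.67 ± 0.16 and -0.61 ± 0.16 (adjusted p = 0.00481 and 0.00789). The dimmer probe set lay between 4.74 and 5.57 in Spi-21 (median 5.26) and between 4.02 and 5.69 in Spi-60 (median 5.47), against 6.07, 7.24, 6.08 and 6.18 in Control. Its changes were -1.17 ± 0.34 and -1.25 ± 0.34 (adjusted p = 0.0175 and 0.0101), and Control replicate 2 stood far above the other Control animals. Without that animal both calls of this probe set were lost.

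The COPI subunits did not move together. Cope, the epsilon subunit, lay between 10.01 and 10.48 in Spi-21 (median 10.23) and between 9.81 and 10.83 in Spi-60 (median 10.12), against 9.58, 9.38, 9.44 and 9.73 in Control. Each late animal was above Control, with changes of 0.71 ± 0.20 on both days (adjusted p = 0.0158 and 0.0136). Copa, the alpha subunit, changed by -0.41 ± 0.14 at day 21 (adjusted p = 0.0362) and -0.07 at day 60. Copg1, the gamma subunit, changed by 0.15 and 0.13, not called. The Cope calls were lost without Control replicate 2 and that of day 21 also without Control replicate 3, and the Copa call was lost without any 1 of the Control animals or Spi-21 replicate 1, 3 or 6.

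The genes of protein entry into the ER, 7 probe sets of 6 genes, had 1 higher and 1 lower at day 2, and 2 lower at each late day (28.6% on each of these days, against 8.87%, 16.6% and 17.1% of all probe sets). Sec62, of the import of finished chains, lay between 7.78 and 8.51 in Spi-21 (median 8.40) and between 7.08 and 8.27 in Spi-60 (median 7.70), against 8.99, 8.99, 8.85 and 8.81 in Control. No late animal reached Control. The change was -0.66 ± 0.18 at day 21 and -1.17 ± 0.18 at day 60 (adjusted p = 0.0144 and 0.000125), against -0.11 and -0.08 early, and late minus early was -0.82 (adjusted p = 2.73e-05). Its day 60 call was kept under each setting. Sec11c, a catalytic subunit of signal peptidase, lay between 9.43 and 10.30 in Spi-2 (median 9.74), between 9.47 and 10.18 in Spi-21 (median 9.88) and between 9.41 and 10.33 in Spi-60 (median 9.90), against 10.62, 10.54, 10.72 and 10.44 in Control. It was lower by 0.78 ± 0.19 at day 2, 0.74 ± 0.18 at day 21 and 0.71 ± 0.18 at day 60 (adjusted p = 0.00839, 0.00632 and 0.00716), and at day 7, where 2 animals fell in the range of Control, the change was -0.41 (adjusted p = 0.305). Sec61b, the beta subunit of the Sec61 channel, was higher at day 2 by 0.60 ± 0.17 (adjusted p = 0.0232), with 9.28 to 10.29 in Spi-2 (median 9.57), against 8.95, 9.11, 9.08 and 9.03 in Control, and changed by 0.07 and 0.03 late. Its call was lost without Control replicate 1, 3 or 4 or Spi-2 replicate 4.

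Of the 14 TRAPP probe sets, 1 was higher at each early day and 2 lower at day 21, and of the 10 exocyst probe sets 2 were lower at day 21. The TRAPP share was 7.14% at each early day, against 8.87% and 2.59% of all probe sets at days 2 and 7. The shares of day 21 were 14.3% and 20%, against 16.6% of all probe sets. Neither complex had a call at day 60, when 17.1% of all probe sets were called. Trappc5, a core subunit of TRAPP, had 1 of 3 probe sets higher, by 0.50 ± 0.15 at day 2 and 0.64 ± 0.16 at day 7 (adjusted p = 0.0323 and 0.0217). The other probe sets of the gene changed by -0.17 to 0.09 on those days. Trappc2b, of the same complex, lay between 6.49 and 8.11 in Spi-21 (median 7.50), against 8.34, 8.24, 8.21 and 8.26 in Control, and changed by -0.93 ± 0.27 (adjusted p = 0.0184) with no overlap. Trappc10, a subunit of one of the larger TRAPP forms, was lower in late minus early, at -0.52 (adjusted p = 0.000865), and on no single day. Exoc2, an exocyst subunit that docks secretory vesicles, changed by -0.51 ± 0.17 at day 21 (adjusted p = 0.0386). The Trappc5 calls were lost without Control replicate 2 or 3, that of day 2 also without Spi-2 replicate 3, 5 or 6 and that of day 7 without Spi-7 replicate 5. The Trappc2b call was lost without Spi-21 replicates 1 to 3, and the Exoc2 call without any 1 of the Control animals or of Spi-21 replicates 1 to 3.

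Of the 25 probe sets with Vps names, 0 were called early, 3 were lower at day 21 and 3 at day 60, and 0 were higher. The share was 12% on both late days, against 16.6% and 17.1% of all probe sets. Vps29, a subunit of retromer, which retrieves receptors from endosomes, lay between 10.58 and 10.90 in Spi-21 (median 10.67), against 10.86, 11.33, 11.13 and 11.21 in Control. It changed by -0.42 ± 0.10 at day 21 and -0.28 ± 0.10 at day 60 (adjusted p = 0.00438 and 0.0434), and 1 Control animal lay within the Spi-21 range. After the further quantile normalization neither call held, and the day 60 call was lost without Control replicate 2, 3 or 4 or Spi-60 replicate 1, 2, 3, 5 or 8. Vps50, of a tether at recycling endosomes, changed by -0.86 ± 0.28 at day 21 (adjusted p = 0.0304). Vps16, a core subunit of the tethers HOPS and CORVET, changed by -0.32 ± 0.09 at day 60 (adjusted p = 0.0193), a call lost without Control replicate 4. Vps4b, the ATPase that takes ESCRT-III apart, was named after its values were seen. It changed by -0.96 ± 0.30 and -0.94 ± 0.30 late (adjusted p = 0.0292 and 0.0294). Without Control replicate 2, 3 or 4 these calls and that of Vps50 were lost, that of Vps50 also without Spi-21 replicate 1, 2 or 3, and those of Vps4b without Spi-21 replicate 1 or 3 (day 21), without Spi-60 replicate 1 or 5 (day 60) and under the replicate block. Vps36, of ESCRT-II, was lower in late minus early alone, at -0.47 (adjusted p = 0.00168), and Vps72 was not called on any day.

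The sorting nexins, 23 probe sets of 16 genes, had 0 calls early, 1 higher and 5 lower at day 21, and 1 higher and 2 lower at day 60. The shares were 26.1% and 13%, against 16.6% and 17.1% of all probe sets. Their median change was -0.16 at day 21 and -0.17 at day 60. Snx1 and Snx2 are the membrane-bending partners of retromer. Snx1 lay between 5.78 and 6.70 in Spi-21 (median 6.34), against 6.65, 7.11, 6.77 and 6.94 in Control, and changed by -0.58 ± 0.15 (adjusted p = 0.00827), a call kept under each setting. Snx2 changed by -0.73 ± 0.24 (adjusted p = 0.0376), which was lost without Control replicate 2, 3 or 4 or Spi-21 replicate 1, 2 or 3. At day 60 the changes were -0.24 and -0.57, not called. Snx12 was higher and Snx16 lower at day 60, by 0.55 ± 0.15 and -0.61 ± 0.16 (adjusted p = 0.0104 and 0.00908). The Snx16 call was lost without Control replicate 3, and the second probe set of Snx16 changed by -0.20 at day 60 (adjusted p = 0.318). Snx18 had 1 probe set at 0.30 and 1 at -1.02 at day 21, both called (adjusted p = 0.0396 and 0.0416). The first call was lost without Control replicate 1, 2 or 3 or Spi-21 replicate 1, 7 or 8, and the second without any 1 of the Control animals or Spi-21 replicate 1, 2, 3 or 6. Snx7, the only sorting nexin here that was named by rule, was lower in late minus early, at -0.61 (adjusted p = 0.00149), and on no single day. Sec14l2, a lipid-transfer protein that the rule took by its name, was lower by 0.53 ± 0.16 at day 21 and 0.62 ± 0.16 at day 60 (adjusted p = 0.019 and 0.00682), and both calls were lost without Control replicate 1, that of day 21 also without Control replicate 2. The second probe set of Sec14l2 changed by 0.32 and 0.24 on these days (adjusted p = 0.0647 and 0.173).

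The late calls moved with the quality covariate and with a few arrays. The Gapdh signal did not overlap between Control (1.8 to 2.5) and Spi-60 (2.99 to 3.97). With this covariate, RNA quality and injury therefore cannot be told apart at day 60. The ranges of Spi-2 (2.3 to 3.38) and Spi-7 (2.38 to 3.33) reached into that of Control, with higher means. At days 2 and 7 the covariate can therefore separate RNA quality and injury only in part. With the Gapdh signal as a covariate, 4 of the 34 calls of day 60 remained, those of Rab28, Sec62, Rab11b and Ap3b2, while 2.07% of all probe sets were called, against 17.1% without the covariate. The median SE of a change was 0.19, against 0.15 without it. The sign was the same for 33 of the 34. Without Spi-21 replicates 1 to 3, 9 members were called at day 21 (5.27% of all probe sets, against 16.6% with these animals), of which 8 were among the 40, and the sign of all 40 was kept. Those 8 were Rab28, Ap3b2, Rab4b, Rab26, Snx1, Snx27, Vps29 and the brighter probe set of Sec24b. Of the calls of day 2, 7 of 13 held under each of the alternatives and left-out arrays (Ap2s1, Arf5, Arl6ip4, Sec11c, Rab28, Rab8a and Rab11fip3), and at day 7 the 1 of Rab28. At day 21, 5 of 40 held (Rab28, Ap3b2, Rab4b, Snx1 and the same probe set of Sec24b). At day 60, 4 of 34 held, the same 4 that remained with the covariate.

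**Figure D5:**
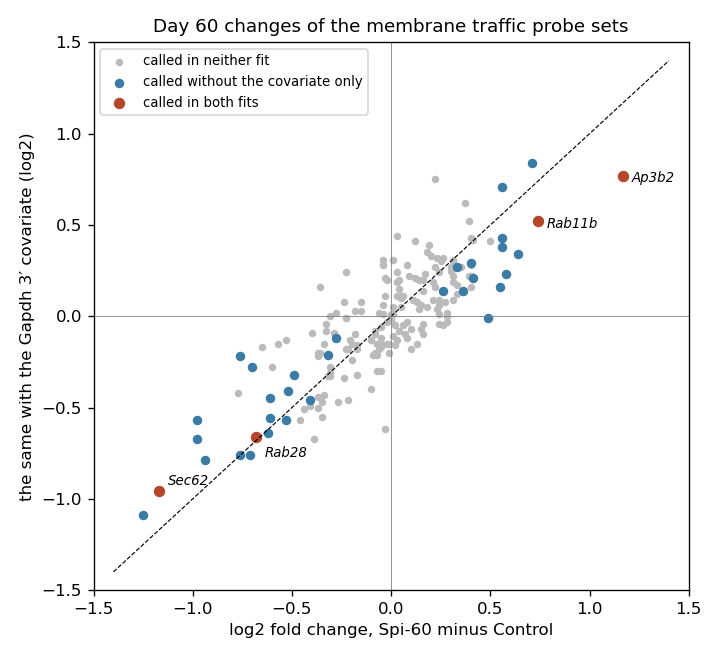
Each dot is 1 of the 197 membrane traffic probe sets, with its log2 fold change in Spi-60 minus Control on the horizontal axis and the same change with the Gapdh 3′ minus 5′ signal as a covariate on the vertical axis; the dashed line is equality. Of the 34 probe sets called, the 4 in red (Rab28, Sec62, Rab11b and Ap3b2) were called in both fits.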

How the data were processed

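Expression was measured on Affymetrix rat genome arrays with RNA of laser-captured motor neurons that had gone through a linear amplification of 2 rounds. Per the labels and the methods, the authors dropped probe sets without an Ensembl annotation, corrected the background, quantile normalized the probes and summarised them with RMA (version not given in the sources used here), then normalized the summaries again. The deposited log2 values, 12919 probe sets on 31 arrays, were used as they stood; raw array files were not used here. The number of arrays in a group limits the precision.

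No test used the 6 control sets of the manufacturer. Groups came from the sample labels. The model had a mean per group, no covariate and all 31 arrays (limma 3.58.1, R 4.3.3), and p-values were adjusted by Benjamini-Hochberg over 12913 probe sets (two-sided, called under 0.05; F-test at an FDR of 0.02). Late minus early is the mean of Spi-21 and Spi-60 minus the mean of Spi-2 and Spi-7. The ± after a change is its SE. Probe sets were named from the platform annotation, and 195 of 197 member probe sets matched the current RefSeq table. The script was tested on simulated data.

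Genes were named by a rule: on each day the 5 highest and 5 lowest called members whose animals did not overlap with Control, the 10 smallest p in the F-test, and the first of each role group, which gave 36 genes. The others named in the text and plots were chosen after their values were seen. The members and lists were chosen with earlier results of these data known. Alternatives were a further quantile normalization, only the groups compared, array weights, the replicate number as a block, the Gapdh covariate, a filter on low values (mean above 5.34), 1 probe set per gene, each array left out, and Spi-21 without replicates 1 to 3. Figures were drawn with matplotlib 3.10.9 in Python 3.11.15.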

Additional observations from a re-analysis of the deposited data

Results flagged for a closer look

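Of 180 groups of named probe sets examined, 9 had 1 animal far from the others by Dixon's criterion, which chance alone gives in about 1 of 20 groups. In Spi-7, replicate 5 was low for Ap2m1 (8.81, others 9.25 to 9.37), Rab5a (7.56, others 8.64 to 8.82), Rab11fip3 (5.93, others 6.73 to 6.94) and Trappc2b (6.87, others 8.13 to 8.33). The array of this animal had an interquartile range of 1.75 over all probe sets, against 1.98 to 2.01 in the other Spi-7 arrays. In Spi-2, replicate 2 was high for Rab5a (8.81, others 8.14 to 8.38) and low for Rab34 (6.15, others 6.22 to 6.25). Control replicate 2 was high for Sec24b (7.24, others 6.07 to 6.18) and Control replicate 4 for Vps16 (8.41, others 8.21 to 8.22). Spi-21 replicate 1 was low for Rab11fip3 (4.81, others 5.75 to 6.44).

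The change late and the change early differed for 23 named probe sets by the test of the difference itself, late minus early (adjusted p under 0.05 in limma). It was above 0 for Ap2s1 (0.99), Ap2b1 (0.58), Arf5 (0.52), Ap3b2 (0.43), Cope (0.42), Ap2m1 (0.36), Arl2 (0.30), Ap1m1 (0.22) and Rab11b (0.18). It was below 0 for Sec24b (-1.32), Rab21 (-0.91), Sec62 (-0.82), Snx7 (-0.61), Rab11fip3 (-0.55), Trappc2b (-0.53), Trappc10 (-0.52), Rab5a (-0.50), Sec14l2 (-0.50), Arl11 (-0.48), Vps36 (-0.47), Sec61b (-0.41), Rab26 (-0.40) and Exoc2 (-0.38). The call was lost for Rab11b without Spi-2 replicate 1, 2 or 4, Spi-7 replicate 1, 2, 3 or 4, Spi-21 replicate 1, 2 or 3 or Spi-60 replicate 1, 2, 3, 4 or 5. It was lost for Arl11 without Spi-2 replicate 1 or 4, Spi-7 replicate 1, 2 or 4 or Spi-21 replicate 3, and for Trappc2b without Spi-7 replicate 1, 2, 3 or 4. Without Spi-21 replicates 1 to 3 together the call was lost for Rab11b, Arl11, Trappc2b, Rab5a and Exoc2. With the replicate number as a block it was lost for Arl11. Over all members 57 of 197 were called in this contrast, 25 above and 32 below 0, against 23.3% of all probe sets. The early and late arrays come from separate studies, so that time and study cannot be told apart.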

How the results depend on the processing

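None of the 79 named calls took the opposite sign under any alternative run. Some small changes that were not called did, such as Arf5 (-0.03 at day 21 without Spi-21 replicates 1 to 3, against 0.04, and -0.03 at day 60 with the Gapdh covariate, against 0.08) and Rab11fip3 (0.12 at day 21 without Spi-21 replicates 1 to 3, against -0.02). The F-test called 45 members, and 77 with array weights. Day 2 gave 13, and 34 with array weights (1146 and 2275 of all). Day 7 gave 5, against 25 with array weights, 3 with the Gapdh covariate and 9 without Spi-21 replicates 1 to 3. With 1 array left out it gave 3 to 8. These were 3 without Control replicate 2, 3 or 4 or Spi-7 replicate 4, and 8 without Spi-7 replicate 5. The calls over all probe sets were 334 at day 7, 1530 with array weights, 190 with the covariate and 492 without those Spi-21 replicates. They were 200, 147 and 337 without Control replicate 2, 3 and 4, and 270 and 348 without Spi-7 replicate 4 and 5. Day 21 gave 40, against 23 with only the groups compared and 9 without Spi-21 replicates 1 to 3. With 1 array left out it gave 17 to 43 (17, 21 and 24 without Control replicate 2, 3 and 4). The calls over all probe sets were 2148 at day 21, 1364 with only the groups compared and 680 without those Spi-21 replicates. Without Control replicate 2, 3 and 4 they were 1197, 1276 and 1737. Day 60 gave 34, against 53 with array weights, 4 with the covariate, and 22 to 36 with 1 array left out (22 without Control replicate 2 or 3). The calls over all probe sets were 2207 at day 60, 3233 with array weights and 267 with the covariate. Without Control replicate 2 and 3 they were 1420 and 1446. Day 60 minus day 21 gave 0, against 1 with array weights, 3 with the replicate block and 3 with low values filtered. It gave 10 without Spi-21 replicates 1 to 3, and 0 to 5 with 1 array left out (5 without Spi-21 replicate 2). Over all probe sets this contrast gave 9, against 10 with array weights, 40 with the block and 26 with low values filtered. It gave 246 without those Spi-21 replicates and 45 without Spi-21 replicate 2. The causes were not tested. Of 79 named calls, 31 held under each alternative, 20 were lost with the covariate and 17 without each of Control replicates 2, 3 and 4.

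The replicate numbers did not pair the animals: deviations of arrays with the same number correlated at -0.33 to 0.35 (51 pairs, median -0.04). With the replicate block 34 members were called by the F-test, 12 at day 2, 5 at day 7, 38 at day 21, 38 at day 60 and 61 in late minus early, and 4 of the 79 named calls were lost. Of all probe sets 1984, 923, 239, 2108, 2236 and 3267 were called, in the same order. Without the block these were 2098, 1146, 334, 2148, 2207 and 3004. The brightness of dim probe sets, such as the second ones of Ap3b2 and Rab11b, limits what they can show.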

Other observations

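Other genes of the same routes, 81 genes with 110 probe sets measured out of 114 listed, had 6 higher and 6 lower at day 2, 0 and 1 at day 7, 6 and 14 at day 21, and 10 and 14 at day 60. The shares were 10.9%, 0.909%, 18.2% and 21.8%, against 8.87%, 2.59%, 16.6% and 17.1% of all probe sets. The genes named here were chosen after their values were seen. Their calls were not followed under the alternatives or with arrays left out. Chmp2a, of the ESCRT-III filament, was lower on each day, by 0.72 ± 0.17, 0.67 ± 0.17, 0.59 ± 0.16 and 0.72 ± 0.16 (log2, SE, adjusted p in limma = 0.00586, 0.0298, 0.0119 and 0.00225 at days 2, 7, 21 and 60). Its relative Chmp2b was lower at days 21 and 60, by 0.46 ± 0.15 and 0.76 ± 0.15 (adjusted p = 0.036 and 0.000994). The exchange factor of the Golgi Arfs, Arfgef1, changed by -0.88 ± 0.25, -0.82 ± 0.23 and -0.84 ± 0.23 at days 2, 21 and 60 (adjusted p = 0.0211, 0.0162 and 0.0125), while Arfip2, which binds Arf and Rac GTPases, was higher by 0.47 ± 0.12, 0.45 ± 0.11 and 0.66 ± 0.11 on the same days (adjusted p = 0.0136, 0.00801 and 0.000322).

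The chains of the clathrin coat differed. Cltc, the heavy chain, was lower by 0.86 ± 0.17 at day 2 and 0.47 ± 0.16 at day 21 (adjusted p = 0.0012 and 0.0399), and changed by -0.22 at day 60 (adjusted p = 0.367). Cltb, a light chain, was higher by 0.50 ± 0.17 at day 21 and 0.75 ± 0.17 at day 60 (adjusted p = 0.0433 and 0.00314). Of the fusion machinery, Napa, which works with NSF to take SNARE complexes apart, was higher by 0.55 ± 0.15 at day 21 and 0.70 ± 0.15 at day 60 (adjusted p = 0.0149 and 0.00231). The ER to Golgi SNARE Bet1 changed by -1.23 ± 0.29 at day 21 and -0.95 ± 0.29 at day 60 (adjusted p = 0.00469 and 0.0206), the tether Uso1 by -0.94 ± 0.25 and -0.77 ± 0.25 (adjusted p = 0.00988 and 0.0293), and the endosomal SNARE Stx12 by -1.03 ± 0.26 at day 2 (adjusted p = 0.013).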
